A study of Mus musculus with 21 samples.

Results

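Interferon-stimulated genes are the genes that cells switch on when an interferon binds its receptor. The 43 genes described here were taken by name from a fixed list, of 55145 gene IDs over the 3 deposited tables, and all 43 were found in each table. They were read in 2 classes: 32 genes typical of type I interferon (the Ifit, Oas and Mx families, Isg15, Irf7, Stat2 and others) and 11 typical of interferon gamma (the guanylate-binding proteins Gbp2, Gbp3 and Gbp7, the GTPases Igtp, Irgm1, Iigp1 and Ifi47, the immunoproteasome subunits Psmb8 and Psmb9, the peptide transporter Tap1 and B2m). The series, by its title, asks whether the adaptor STING drives hepatocyte pyroptosis in liver fibrosis through NLRP3. It has 7 groups of 3 RNA-seq libraries each, 21 in all, from mice.

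Of the liver groups, 3 share 1 table: wild-type mice given oil, wild-type mice given the hepatotoxin carbon tetrachloride (CCl4), and mice labelled Sting knockout given CCl4. All were injected intraperitoneally. The labels give 6 weeks for these groups, and the design text gives 8 weeks for CCl4. The other 2 liver groups, in another table, had 8 weeks of intraperitoneal thioacetamide (TAA), another hepatotoxin. They were wild-type mice and mice with a hepatocyte-specific Nlrp3 deletion, whose Cre driver the sources used here do not give. The third table holds wild-type primary hepatocytes given lipopolysaccharide (LPS, 1 µg/mL) over 6 h and then the ionophore nigericin (10 µM) over 30 min. In 1 of its groups the NLRP3 inhibitor MCC950 (10 µM) was added 2 h earlier. Both hepatocyte groups were stimulated, both TAA groups were injured, and unstimulated cells, uninjured TAA controls and oil-treated Sting knockout mice were not analysed here.

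Type I interferons are sensed by IFNAR1 and IFNAR2, whose kinases JAK1 and TYK2 phosphorylate STAT proteins. A complex that holds STAT2 and IRF9 then binds interferon-stimulated response elements at genes such as Isg15. Interferon gamma, made mainly by T and NK cells, acts through IFNGR1 and IFNGR2 and gamma-activated sites in DNA, and it induces IRF1, guanylate-binding proteins and antigen-presentation genes. Many genes answer both, so the classes name a typical inducer only. STING lies upstream: when cGAS finds cytosolic DNA, STING activates TBK1 and IRF3, which can induce interferon beta.

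Promoter windows, from 250 bases before to 50 bases after the gene start (RefSeq, GRCm38.p6), were matched for 34 of the 43 genes. Dhx58, Ifi27l2a, Iigp1, Mx1, Mx2, Oas2, Parp14, Rtp4 and Usp18 had none in the table. Windows were searched on both strands for the core letters GAAANNGAA of the response element and TTCNNNGAA of the STAT site, overlaps allowed. The response element core stood in the window of 20 of the 34 genes (58.8%), against 9.76% of the 27025 genes with a window. By class it was in 14 of 24 type I style genes and 6 of 10 interferon gamma style genes. The STAT core stood in 9 of the 34 (26.5%), against 9.55% of all genes. Neither core was in the windows of Cmpk2, Herc6, Ifi47, Irf7, Irf9, Oasl1, Oasl2, Psmb9, Tap1 and Xaf1. A match describes letters only.

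The stretches below belong to genes on which the results turn, each written 5′ to 3′ on the gene's strand, with the searched cores in capitals. Oas1a and Oasl2 were called after CCl4, Isg15 holds the most overlapping cores of those shown, Igtp and Gbp2 were far higher in 1 CCl4 liver than in the others, and Bst2 was among the most abundant members in every table. Each is 120 bases; it ends 41 bases before the gene start for Bst2 and at the start for the others. The positions are chr5:120907526-120907645 (minus strand) for Oas1a, chr4:156200819-156200938 (minus) for Isg15, chr5:114896814-114896933 (plus) for Oasl2, chr8:71537513-71537632 (minus) for Bst2, chr11:58199436-58199555 (plus) for Igtp and chr3:142620543-142620662 (plus) for Gbp2.
Oas1a: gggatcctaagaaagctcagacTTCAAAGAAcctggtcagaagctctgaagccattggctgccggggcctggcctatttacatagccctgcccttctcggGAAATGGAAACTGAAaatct
Isg15: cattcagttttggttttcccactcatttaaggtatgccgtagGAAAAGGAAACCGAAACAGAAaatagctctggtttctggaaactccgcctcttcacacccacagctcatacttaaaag
Oasl2: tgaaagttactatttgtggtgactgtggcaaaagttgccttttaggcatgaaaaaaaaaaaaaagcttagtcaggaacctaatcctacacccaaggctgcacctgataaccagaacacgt
Bst2: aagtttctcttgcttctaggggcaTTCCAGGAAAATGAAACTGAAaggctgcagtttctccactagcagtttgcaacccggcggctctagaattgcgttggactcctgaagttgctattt
Igtp: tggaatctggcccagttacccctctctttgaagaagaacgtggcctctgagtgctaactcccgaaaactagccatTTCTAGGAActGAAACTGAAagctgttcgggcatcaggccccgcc
Gbp2: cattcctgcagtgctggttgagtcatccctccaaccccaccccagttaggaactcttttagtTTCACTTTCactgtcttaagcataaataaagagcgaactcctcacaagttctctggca
Isg15 holds 3 overlapping response element cores, Oas1a and Bst2 hold 2 each, and Igtp and Gbp2 hold 1, that of Gbp2 on the opposite strand. A STAT core stands near the response element of Igtp, overlaps it in Bst2, and lies farther upstream in Oas1a.

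Ifit3 and Ifit3b, neighbours on chromosome 19, are shown because they are close copies of each other. Over 100 bases around their 3 response element cores, all on the opposite strand, at chr19:34583364-34583463 and chr19:34607760-34607859 on the plus strand, the 2 promoters differed at 0 positions, while over the 268 aligned bases of the 2 windows 75.0% were identical.
Ifit3: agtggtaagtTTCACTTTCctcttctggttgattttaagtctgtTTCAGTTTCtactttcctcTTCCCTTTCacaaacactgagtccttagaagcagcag
Ifit3b: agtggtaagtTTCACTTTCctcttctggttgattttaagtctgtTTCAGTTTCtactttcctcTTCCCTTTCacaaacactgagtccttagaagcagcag
Counts of close relatives (Ifit3 and Ifit3b, Oas1a and Oas1g, the Gbp family) and of genes that overlap another gene (Tap1 with Psmb9, Igtp with Irgm2, Irf7 with Phrf1, Rtp4 with Masp1, Ifi47 with Olfr56, B2m with Patl2) are uncertain, since reads of near copies may not be told apart and the sources used here do not give strand.

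Depth ran from 14353483 to 16684832 recovered reads in CCl4-table libraries and from 14883710 to 17157586 in hepatocyte libraries, and the TAA table held 32096879 to 68913793 counts per library. Values below are FPKM (fragments per kilobase of gene, scaled to library depth), listed for replicates 1, 2 and 3 of a group. The labels do not tie replicates to separate animals or cultures, and the p-values rest on library-to-library spread alone, which may be technical. Summed hepatocyte markers were high in every library, from 9357 FPKM upwards. The STING gene, Sting1, stood at 6.10, 5.15 and 4.74 FPKM in wild-type livers after CCl4 and at 3.42, 1.98 and 5.28 in those labelled Sting knockout. The groups overlapped, so these are called the libraries labelled Sting knockout. Their titles say STING KO, while their sample codes begin with SWT, which the titles do not explain. Nlrp3 was at 0.15, 0.11 and 0.17 FPKM in wild-type TAA livers and 0.08, 0.37 and 0.25 in those labelled with the hepatocyte deletion, where 2 of 3 libraries were above the wild type. These values of whole liver do not check that label, and the deletion group below means the libraries so labelled.

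Replicate 1 of the wild-type CCl4 group stood apart for these genes. Of the 43 members, 38 had their highest level of all 9 libraries there (28 of the 32 type I style and 10 of the 11 interferon gamma style genes), while 13.3% of the 11511 genes tested did. All 43 were above the mean of replicates 2 and 3 of its group, as were 55.6% of genes tested. Its members exceeded those replicates by a median of 1.49 on the log2(FPKM + 1) scale, against 0.06 over all genes. The exceptions to the first count were Trim25, highest in oil replicate 3, Isg20, highest in replicate 1 of the libraries labelled Sting knockout, and B2m, Bst2 and Ifi35, highest in replicate 2 of that group. Counts and fitted differences on which the results of this table turn are therefore given with and without this library. It was singled out by the members' own values, so leaving it out lowers the wild-type CCl4 mean of every member by arithmetic. The sample code of this library differs in form from those of replicates 2 and 3. That of oil replicate 1 likewise differs from those of the other oil libraries, and the titles do not explain these codes.

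**Figure D1:**
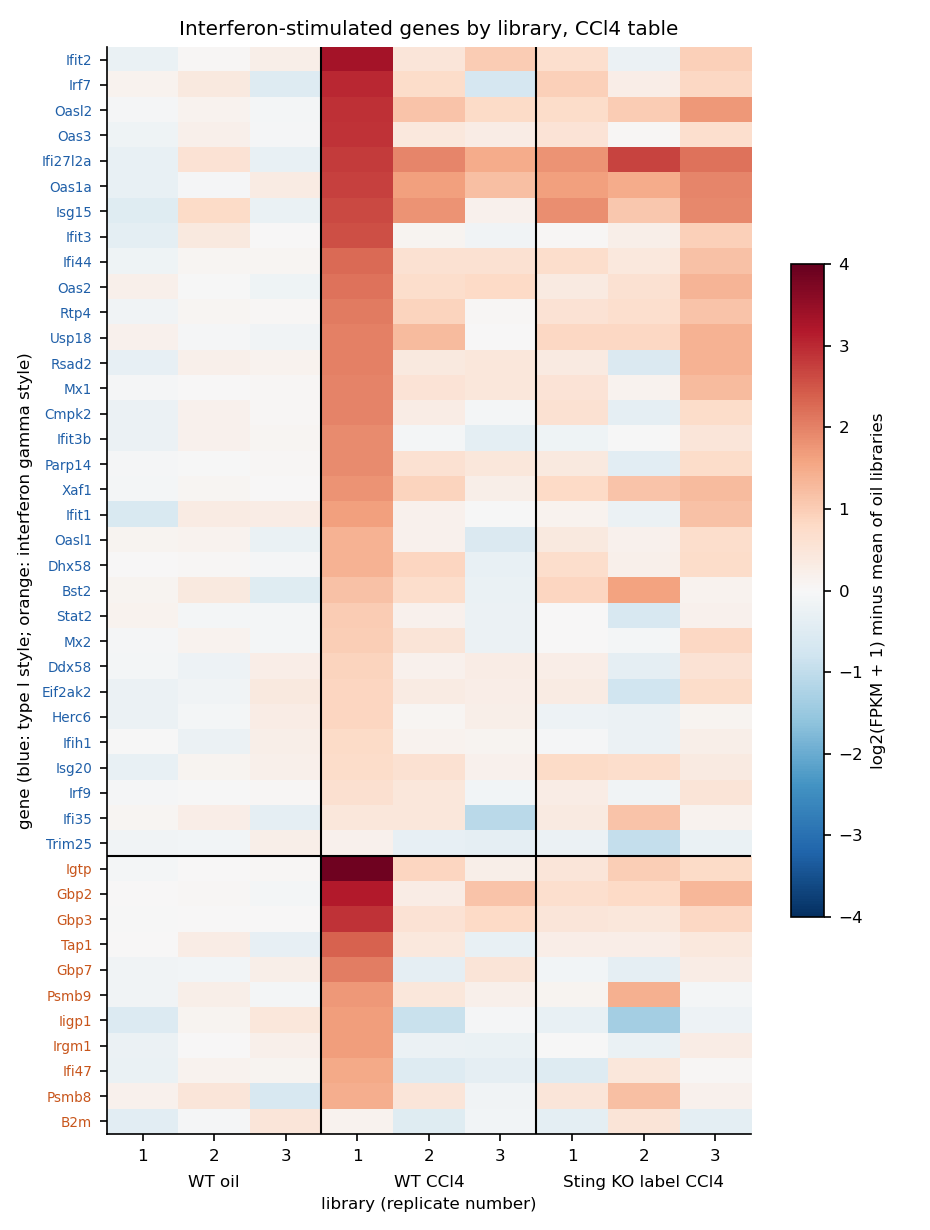
Each row is 1 of the 43 genes (blue names, 32 type I style; orange names, 11 interferon gamma style) and each column 1 library of the CCl4 table. Colour gives log2(FPKM + 1) minus the mean of the 3 oil libraries; replicate 1 of wild-type CCl4 is the darkest red column, and 38 genes have their highest level there.

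Genes of both classes were far above the rest of the group in that liver. Igtp (ENSMUSG00000078853, chromosome 11, 58199556 to 58207591), a GTPase that acts on pathogen vacuoles, was at 179, 21.2 and 13.6 FPKM in wild-type CCl4 livers. Gbp2, a guanylate-binding protein, was at 38.3, 4.40 and 8.68, and Gbp3 at 26.7, 4.54 and 5.50. Tap1, which carries peptides to MHC class I, was at 31.1, 7.47 and 4.06. In oil livers Igtp was at 10.7, 11.4 and 11.7 and Tap1 at 5.39, 6.71 and 3.98, so only replicate 1 lay far above the oil livers. The GTPases Irgm1 (42.6, 10.6 and 10.5 FPKM), Ifi47 (49.98, 11.6 and 13.1) and Iigp1 (433, 72.4 and 128) were likewise highest in replicate 1. Against the mean of replicates 2 and 3, the ratio of FPKM had a median of 4.31 over the 11 interferon gamma style genes and 2.78 over the 32 type I style genes, a difference between classes that was not tested. Single ratios ran from 1.33 for B2m to 10.3 for Igtp among the former and reached 12.3 for Oas3 among the latter.

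Type I style genes were also highest there. Irf7, the factor that amplifies interferon alpha production, was at 96.1, 19.1 and 6.65 FPKM. Ifit2, an RNA-binding antiviral protein, was at 25.6, 2.70 and 4.30, and Ifit3 at 45.8, 7.48 and 6.13. Oas3, an oligoadenylate synthetase whose product activates RNase L, was at 9.01, 0.81 and 0.66. Mx1, a dynamin-like antiviral GTPase, was at 4.14, 0.89 and 0.78. Mx1 and Oas3 had a mean of at least 1 FPKM only with this library, so 41 members passed that filter without it.

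Some genes around the pathway were also highest in that library: 1 of the 3 ligand genes detected, 4 of 9 receptor and kinase genes, 5 of 8 transcription factors, 8 of 16 sensing genes and 4 of 7 brakes. Ifng, the interferon gamma gene, was at 0.68, 0.04 and 0.04 FPKM in wild-type livers after CCl4, and in the other groups it was listed at 0 except in oil replicate 3 (0.14). Irf1 was at 26.8, 7.41 and 5.29, and Socs1, a feedback inhibitor of JAK kinases, at 4.64, 0.47 and 0.17. The chemokine genes Cxcl9 (25.0, 3.51 and 9.74) and Cxcl10 (20.3, 2.68 and 2.56), which draw T cells, were highest there too. Ifnb1 and 14 genes of the interferon alpha family were listed at 0 in every library of this table. Of a fixed list of 50 other type I style genes, 39 of the 49 detected were highest in this library, and of 28 other interferon gamma style genes, 22 of 28 were.

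Cell type markers also differed there. The 9 T and NK cell markers summed to 28.7, 2.62 and 6.42 FPKM in wild-type livers after CCl4, and 8 of the 9 were highest in replicate 1. The 5 Kupffer cell markers summed to 1081, 258 and 432, and all 5 were highest in it. The 9 macrophage and monocyte markers summed to 745, 687 and 988, and the 6 neutrophil markers to 62.9, 64.3 and 135, so these were not highest in it. In the libraries labelled Sting knockout the T and NK cell markers summed to 4.23, 18.5 and 3.42, and in oil to 1.71 to 2.39; each marker of these lists was above 0 in every group. The part of these cells in the members' levels was not tested, and in bulk liver more cells of a type cannot be told apart from more RNA per cell.

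**Figure D2:**
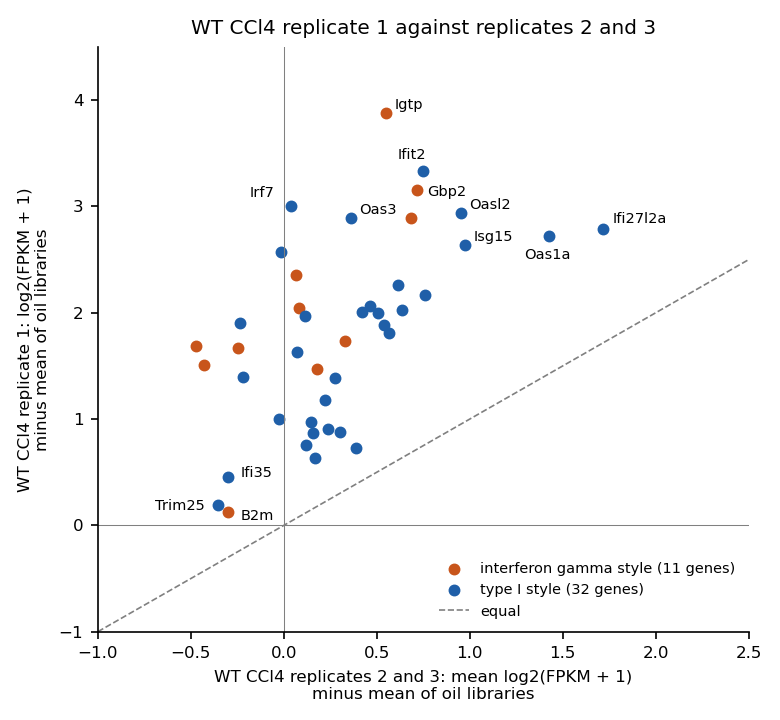
Each point is 1 of the 43 genes. The x axis is the mean log2(FPKM + 1) of wild-type CCl4 replicates 2 and 3 minus the oil mean, the y axis the same difference for replicate 1, and the dashed line marks equal values. All 43 points lie above the line, with Igtp farthest up and Oas1a and Ifi27l2a farthest right.

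CCl4 was first compared with oil in wild-type liver, the comparison that asks what injury did to these genes. Of 43 genes, 3 rose and 0 fell: Oas1a, Ifi27l2a and Oasl2, all type I style. The shares called over all 11511 genes tested were 9.19% higher and 6.15% lower (limma, adjusted p under 0.05). The median difference of the 43 was 0.74 on the log2(FPKM + 1) scale, against -0.08 over all genes tested. It was 0.79 for the type I style and 0.74 for the interferon gamma style genes. Without replicate 1 of wild-type CCl4 the medians were 0.22, 0.25 and 0.08 for the 41, the type I style and the interferon gamma style genes. Then 2 of 41 members were called higher, beside 847 of 11479 genes.

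Oas1a (chromosome 5, 120896256 to 120907521, minus strand) encodes an oligoadenylate synthetase that is switched on by double-stranded RNA. It was at 1.88, 2.47 and 3.48 FPKM in oil and at 22.5, 10.2 and 7.16 in wild-type CCl4 livers. Every CCl4 liver was above every oil liver, and the rise was 1.86 on the log2(FPKM + 1) scale (SE 0.35, limma adjusted p = 0.00583). Without replicate 1 it was 1.43 (limma adjusted p = 0.00868).

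Ifi27l2a (chromosome 12, 103442167 to 103443680, minus strand) encodes a small hydrophobic membrane protein of the Ifi27 family. It was at 9.37, 18.2 and 9.51 FPKM in oil and 87.0, 48.0 and 34.8 in CCl4 livers. The groups did not overlap, and the rise was 2.07 (SE 0.40, limma adjusted p = 0.00605). Without replicate 1 it was 1.71 (limma adjusted p = 0.0186).

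Oasl2 (chromosome 5, 114896936 to 114912234, plus strand) encodes an oligoadenylate synthetase-like protein with ubiquitin-like domains. It was at 0.74, 0.97 and 0.72 FPKM in oil and at 12.8, 2.98 and 2.08 in CCl4 livers. Its rise was 1.61 (SE 0.48, limma adjusted p = 0.0450) with all libraries. Without replicate 1 it was 0.95 (limma adjusted p = 0.0646), and with the replicate number as a block it stayed at 1.61 (limma adjusted p = 0.0603), so the call was lost in both. In all, 7 of 43 members were called without wild-type CCl4 replicate 2, beside 927 of 11515 genes called higher. Without replicate 3 they were 8 of 43, beside 941 of 11407 genes. On reads, edgeR's quasi-likelihood test called 14 of 43 members higher, beside 1969 of 14894 genes. The 14 were these 3, Gbp2, Gbp3, Ifi44, Ifit2, Igtp, Isg15, Mx1, Oas2, Oas3, Usp18 and Xaf1. That test was not run without replicate 1.

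In wild-type CCl4 livers 14 of the 43 genes lay wholly above the oil livers, as did 16.6% of genes tested. Without replicate 1 these were 12 of 41, beside 20.002% of genes tested. Besides the 3 called these were Gbp2, Gbp3, Igtp, Ifi44, Ifit2, Mx1, Oas2, Oas3, Parp14, Rsad2 and Xaf1, with adjusted p from 0.0545 for Oas2 to 0.264 for Rsad2. Xaf1, a partner of the apoptosis inhibitor XIAP, was at 0.90, 1.12 and 1.04 FPKM in oil and 6.06, 2.76 and 1.38 in CCl4 livers. Oas2 was at 0.75, 0.52 and 0.36 in oil and 5.89, 1.52 and 1.67 in CCl4 livers. Isg15, a ubiquitin-like modifier, was at 5.82, 15.3 and 7.06 in oil and 59.0, 32.2 and 9.82 after CCl4, so its ranges overlapped (limma adjusted p = 0.0988).

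The most abundant members did not separate the groups. B2m, the light chain of MHC class I and 71.0% of the members' summed FPKM in this table, was at 1509, 1959 and 2820 FPKM in oil and at 2212, 1450 and 1876 after CCl4. Bst2, the surface protein tetherin that holds budding virus at the membrane, was at 192, 237 and 127 in oil and 408, 294 and 149 after CCl4. Iigp1 was at 90.9, 145 and 183 in oil, within the range of the CCl4 livers. The fitted differences of Trim25 (-0.18), B2m (-0.16) and Ifi35 (-0.05) were the 3 below 0, and quantile normalization put all 43 above 0.

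Genes around the pathway, from fixed lists, were tested in the same fit. Of 8 receptor and kinase genes tested, 2 rose and 0 fell: Il10rb, a chain shared by the interferon lambda and IL-10 receptors (1.32, limma adjusted p = 0.00183), and Ifngr1, the ligand-binding chain for interferon gamma (1.10, limma adjusted p = 0.00470). Ifngr1 was at 8.35, 9.32 and 8.91 FPKM in oil and 22.4, 17.3 and 21.1 after CCl4, with all 3 CCl4 livers high. Of 7 interferon transcription factors tested 1 rose, Irf8, a regulator of macrophage and dendritic cells (1.65, limma adjusted p = 0.00940), while Irf1 (0.33, limma adjusted p = 0.711, and -0.32 without replicate 1) did not pass.

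Of 14 genes of DNA and RNA sensing tested, 7 rose and 1 fell, and 6 and 1 without replicate 1. The endosomal RNA receptor Tlr7 rose by 1.83 (limma adjusted p = 0.00145), Sting1 by 1.53 (limma adjusted p = 0.00335) and the DNA sensor Aim2 by 1.09 (limma adjusted p = 0.0142). Mavs, the mitochondrial adaptor of RNA sensing, fell by 0.88 (limma adjusted p = 0.0240). Among 6 brakes on the pathway 1 rose, the phosphatase gene Ptpn6 (1.02, limma adjusted p = 0.0361). Of 45 other type I style genes tested 11 rose and 0 fell (7 and 0 of 43 without replicate 1), led by Slfn9 (2.26, limma adjusted p = 0.000655), Slfn2 (2.32, limma adjusted p = 0.00140) and Trim30a (1.57, limma adjusted p = 0.00677). Of 25 other interferon gamma style genes 3 rose and 0 fell (2 and 0 of 22 without replicate 1): Fgl2, Gbp8 and Serpina3g. Without wild-type CCl4 replicate 1 the calls of Il10rb, Ifngr1, Irf8, Tlr7, Sting1, Aim2, Mavs, Slfn9, Slfn2, Trim30a, Fgl2 and Serpina3g held, while those of Ptpn6 (0.73, limma adjusted p = 0.102) and Gbp8 (1.06, limma adjusted p = 0.101) were lost. Over the same comparison all 8 macrophage and monocyte markers tested, of 9, were called higher, with summed levels of 119 to 162 FPKM in oil and 687 to 988 in CCl4 livers. Neutrophil markers were called in 4 of 4 tested (5.35 to 16.4 FPKM summed in oil, 62.9 to 135 after CCl4), stellate cell markers in 3 of 6 (42.5 to 55.5 and 122 to 182) and Kupffer cell markers in 2 of 5. Without replicate 1 the counts were 6 of 8 macrophage and monocyte, 4 of 4 neutrophil, 3 of 6 stellate cell and 1 of 5 Kupffer cell markers. The part of these cells in the rise of Oas1a, Ifi27l2a and Oasl2 was not tested.

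The libraries labelled Sting knockout were then compared with wild type, both after CCl4, which asks whether the members depend on STING. No member was called (0 higher and 0 lower of 43, limma), as was 0% of all 11511 genes in either direction (0% higher, 0% lower). At an unadjusted p under 0.05 limma gave 0 members, beside 189 genes higher and 177 lower. On reads, edgeR gave 6 of 43 members at that level, beside 662 of 14894 genes, and called 0. The ranges of the groups overlapped for all 43 genes, and only 2.35% of genes tested lay wholly above the wild type and 2.78% wholly below. The median difference was -0.34 with 34 of 43 genes below 0. Without replicate 1 of wild-type CCl4 it was 0.22 with 29 of 41 above 0, a shift upwards that follows by arithmetic from the members' high levels there. Over all genes these 2 medians were 0.02 and 0.05. Without wild-type CCl4 replicate 2 or 3 the members' median was -0.49 or -0.62, with 36 or 41 of 43 genes below 0. Without replicate 1, 2 or 3 of the libraries labelled Sting knockout it was -0.26, -0.23 or -0.52.

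Single genes show the weight of that library. Igtp was at 16.1, 23.5 and 19.8 FPKM in the livers labelled Sting knockout, against 179, 21.2 and 13.6 in wild type. Its difference was -0.91 (95% interval -2.51 to 0.69), and 0.19 without replicate 1. Ifit2 was at 3.17, 1.26 and 4.09 against 25.6, 2.70 and 4.30, a difference of -1.15 (95% interval -2.49 to 0.20), and -0.28 without replicate 1. In both genes only replicate 1 of the wild type lay outside the range of the other 5 livers on the high side.

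For Isg15 and the 3 genes that rose with CCl4, the livers labelled Sting knockout lay within or near the wild-type range. Oas1a was at 10.1, 9.02 and 12.6 FPKM in the livers labelled Sting knockout, a difference from wild type of -0.16 (95% interval -0.94 to 0.61), which turned to 0.27 without wild-type replicate 1. Ifi27l2a was at 43.4, 82.8 and 56.3, a difference of 0.15 (95% interval -0.72 to 1.03), and 0.51 without that library. Isg15 was at 34.3, 19.4 and 35.9, a difference of 0.10 (95% interval -1.15 to 1.35), and 0.66 without it. Oasl2 was at 1.98, 2.68 and 4.97, a difference of -0.46 (95% interval -1.51 to 0.60), which turned to 0.21 without it. The intervals of Ifi27l2a, Isg15 and Oasl2 include differences of over 1 log2 unit, so equal levels are not shown.

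**Figure D3:**
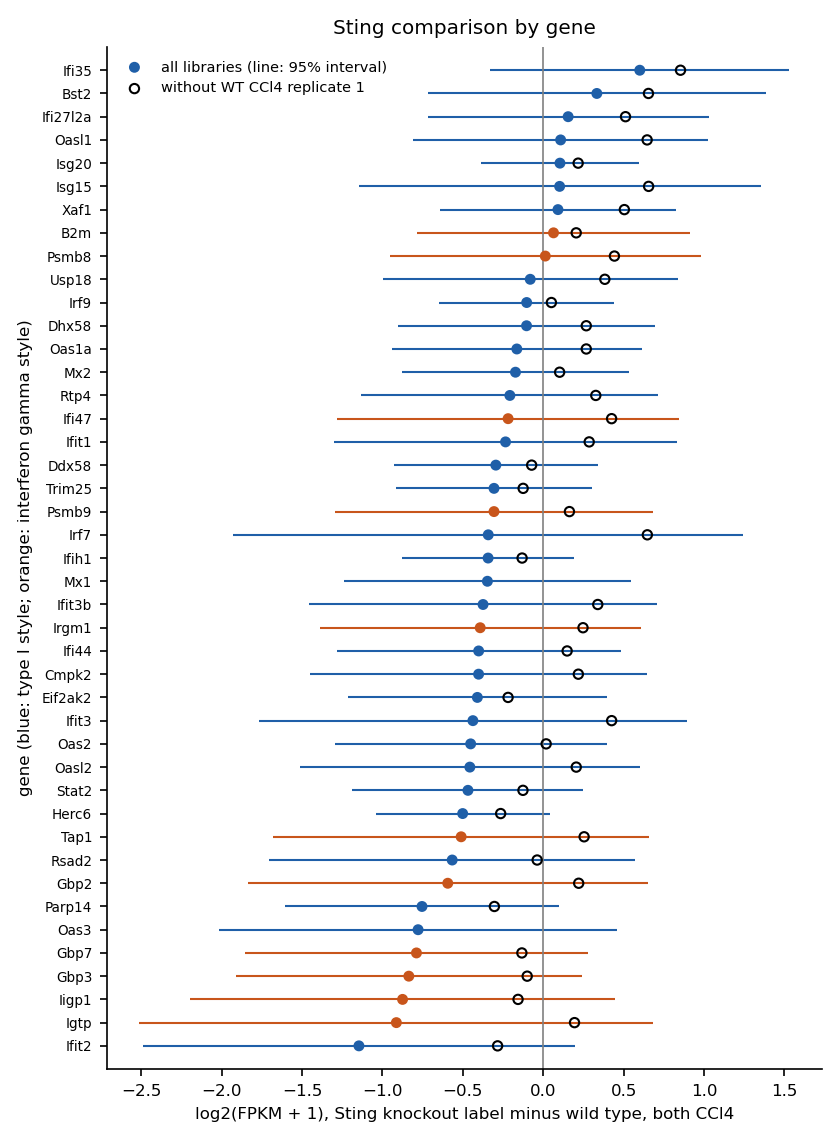
Rows are the 43 genes ordered by the fitted difference in log2(FPKM + 1), libraries labelled Sting knockout minus wild type, both CCl4. Filled points and lines give the value and its 95% interval with all libraries. Open circles give the value without wild-type CCl4 replicate 1 (41 genes). All 43 intervals include 0. The open circles lie to the right of the filled points by arithmetic, since each gene in the library left out was above the mean of replicates 2 and 3.

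Against wild-type oil livers, the libraries labelled Sting knockout had 2 members higher and 0 lower of 43, Ifi27l2a and Oas1a, where 8.00% of all genes tested were called higher and 5.91% lower. This comparison shares its oil livers with the CCl4 comparison in wild type. Ifi27l2a rose by 2.23 (SE 0.40, limma adjusted p = 0.00478) and Oas1a by 1.69 (SE 0.35, limma adjusted p = 0.0102). Every liver labelled Sting knockout was above every oil liver for both genes. The median of the 43 was 0.43, against -0.04 over all genes, with 0.45 for the type I style and 0.32 for the interferon gamma style genes. Fitted on these 2 groups alone, 8 of 41 members were called (Gbp2, Ifi27l2a, Isg15, Oas1a, Oasl2, Rtp4, Usp18 and Xaf1), beside 964 of 11309 genes called higher. Without wild-type CCl4 replicate 1 they were 7 of 41 (Gbp2, Ifi27l2a, Ifi44, Isg15, Oas1a, Oasl2 and Xaf1), beside 959 of 11479 genes. Without wild-type CCl4 replicate 3 they were 5 of 43 (Ifi27l2a, Isg15, Oas1a, Usp18 and Xaf1), beside 1030 of 11407 genes. Wild-type CCl4 livers enter this comparison only through the shared spread and the filter.

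Of the 43 genes, 16 lay wholly above the oil livers and 1, Trim25, wholly below, beside 17.8% and 19.8% of genes tested. Isg15 was in the first set (limma adjusted p = 0.0830), as were Xaf1 (2.53, 3.46 and 3.84 FPKM, limma adjusted p = 0.0563), Isg20, an exonuclease that degrades RNA, and Usp18, the protease that removes ISG15. Trim25, a ubiquitin ligase of the RIG-I pathway, was at 18.3, 10.7 and 17.7 against 19.6, 19.9 and 25.7 in oil. Of the 11 interferon gamma style genes 0 were called, and B2m (1539, 2916 and 1530 FPKM) and Bst2 (325, 553 and 199) had their highest value in replicate 2, the library in which 26.4% of all genes tested were highest. Over the 43 genes, replicate 3 of that group was the highest instead, with a median of 0.44 above the mean of the other 2 and 36 of 43 genes above it, while replicate 2 was at -0.35 with 10 of 43 above.

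In primary hepatocytes, the MCC950 comparison asks whether blocking NLRP3 changes them after LPS and nigericin. The 9 macrophage and monocyte markers summed to 94.9 to 109 FPKM, nearly all of it Cd14 and Cd68, and the 5 cholangiocyte markers to 52.7 to 66.9. The 9 T and NK cell markers summed to at most 0.0338 FPKM, with 7 of them at 0 in every library without MCC950, and the 5 Kupffer cell markers to at most 0.466. Of the 43 genes, 25 had a mean of at least 1 FPKM and were tested. B2m was at 1328, 1117 and 1157 FPKM without MCC950 and 1387, 1220 and 1388 with it, and Bst2 at 166, 193 and 174 and at 156, 167 and 162. Oasl1, an oligoadenylate synthetase-like protein that restrains Irf7 translation, came next at 30.5, 30.1 and 28.3 and 26.3, 29.3 and 26.2. Trim25, Ifi35 and Irf7 followed, Irf7 at 8.21, 8.58 and 8.00 and 6.83, 8.14 and 6.62.

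Many classical members were near the limit of detection in these cells. Oas2 had 0 reads in all 6 libraries, which allows up to 0.0454 FPKM at 3 reads a library, and this limit covers counting error only. Oas3 had 2 reads in 1 library and 0 in the others. Ifi27l2a, 1 of the genes that rose in CCl4 liver, had 4, 1 and 0 reads without MCC950 and 0, 0 and 0 with it. Ifit2 had 3 to 9 reads and Mx1 0 to 4. Of the genes of the pathway, Ifngr1 was at 49.9 to 56.2 FPKM and Ifnar1 at 7.76 to 9.64, Stat2 at 5.06 to 6.00, Irf3 at 30.7 to 41.3 and Sting1 at 0.05 to 0.29, while Ifnb1 and Ifng were listed at 0. The receptor gene Ifngr1 was thus the highest of these, and Sting1 was low.

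**Figure D4:**
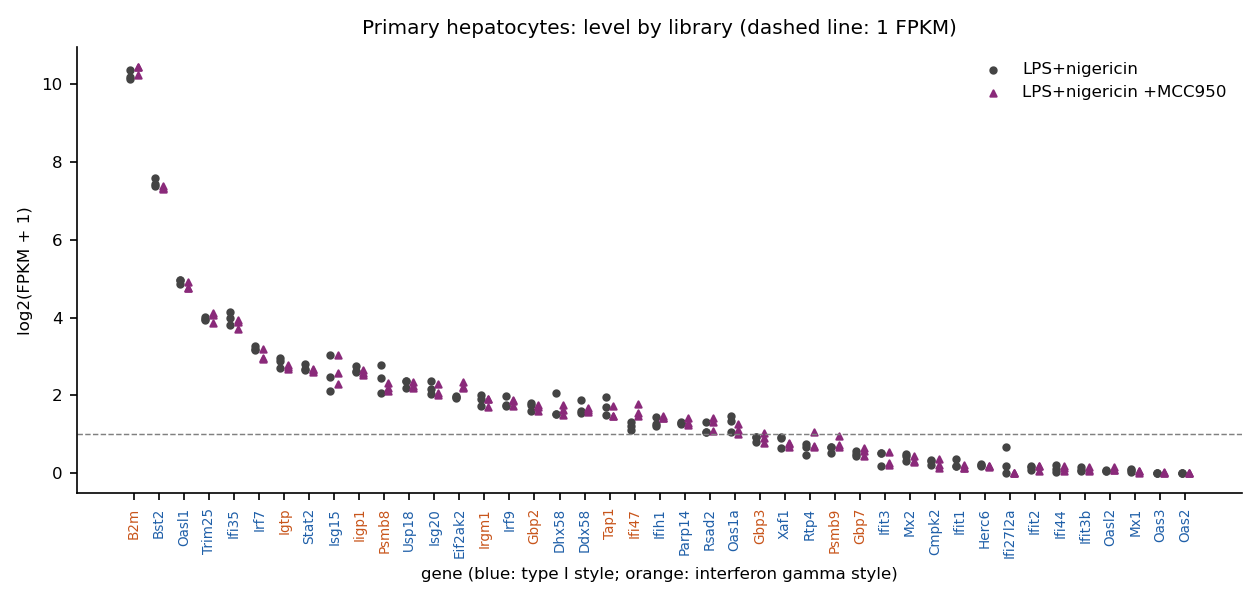
Genes are ordered by mean level in primary hepatocytes; each dot (LPS and nigericin) or triangle (with MCC950 too) is 1 library, as log2(FPKM + 1), and the dashed line marks 1 FPKM. B2m and Bst2 lead, 25 genes have a mean above the line, and dots and triangles of a gene lie together.

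No member was called with MCC950 (0 higher and 0 lower of 25, limma), as was 0% of all 9835 genes tested in either direction. At an unadjusted p under 0.05 limma gave 2 members, beside 465 genes higher and 703 lower. On reads, edgeR gave 2 of 34 members at that level, beside 1535 of 12050 genes, and called 0. The 2 members with limma were Eif2ak2, the double-stranded RNA kinase PKR, and Ifi47. Eif2ak2 was at 2.93, 2.86 and 2.82 FPKM without MCC950 and 3.56, 3.60 and 4.09 with it, a difference of 0.29 (SE 0.06, limma adjusted p = 0.390). Ifi47 was at 1.14, 1.31 and 1.47 and at 2.42, 1.91 and 1.78, a difference of 0.39 (SE 0.10, limma adjusted p = 0.390). In both genes all 3 libraries with MCC950 lay above those without it, as did 8.88% of genes tested. Over the 25 genes the 95% intervals ran from -0.64 at the lowest (Psmb8) to 0.74 at the highest (Isg15), and the median difference was -0.07, against -0.01 over all genes.

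In TAA livers, the libraries labelled with the hepatocyte Nlrp3 deletion were compared with wild type. No member was called among the 43 tested (edgeR's quasi-likelihood test, 0 higher and 0 lower), where 1.37% of all 18619 genes tested were called higher and 0.360% lower. At an unadjusted p under 0.05, 3 members were higher and 12 lower, beside 3025 genes higher and 2350 lower of the 18619. DESeq2 called 1 member higher (B2m) and 5 lower (Mx2, Oas2, Parp14, Stat2 and Xaf1). Beside these it called 1986 genes higher and 1672 lower of the 34280 given to it. The median was -0.30 over the type I style and 0.25 over the interferon gamma style genes, and -0.04 over all genes tested. Scaling mattered here: with library size alone the median of all genes was 0.31, a shift of 0.35. The type I style median then turned to 0.06 and the interferon gamma style median to 0.62, and limma on FPKM gave 0.01 and 0.53. Over 5 fits that differed in scaling or tool, 9 members changed sign. In every fit that gave them a value, 17 members were above 0 and 17 below 0. The fits used the same libraries, so equal signs are not separate support, and the share over all genes is not given here. All 5 gave a value for 39 of the 43, and limma gave none for Ifi44, Cmpk2, Herc6 and Oas3.

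The 17 genes with values above 0 in those fits were 10 of the 32 type I style genes, among them Isg15, Ifit2, Ifit3 and Oasl1, and 7 of the 11 interferon gamma style genes, among them B2m, Psmb8, Psmb9, Gbp2 and Iigp1. Some of these were close to 0 in edgeR's main fit, such as Ifit3 (0.066), Isg15 (0.099) and Eif2ak2 (0.005). On the FPKM scale 13 of the 43 lay wholly above the wild type, as did 27.8% of genes tested. B2m (chromosome 2, 122147686 to 122153083) was at 438, 424 and 458 FPKM in wild type and 753, 1104 and 1144 with the deletion. These groups did not overlap, and the difference was 0.79 log2 units (SE 0.23, edgeR adjusted p = 0.0774). Bst2 was at 74.3, 68.8 and 89.8 and at 159, 156 and 139 FPKM (0.59, SE 0.20, edgeR adjusted p = 0.102). Ifih1, which encodes the RNA sensor MDA5, was at 1.23, 0.90 and 1.06 and at 1.71, 2.28 and 3 (0.76, SE 0.23, edgeR adjusted p = 0.0881). The immunoproteasome genes Psmb8 (5.86, 5.17 and 5.97 against 10.7, 8.85 and 8.06) and Psmb9 (3.80, 3.55 and 4.71 against 6.33, 6.31 and 6.01) also had ranges apart on the FPKM scale, with fitted differences of 0.33 and 0.25 that did not pass.

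The 17 genes with values below 0 in those fits were the interferon gamma style genes Gbp3 and Tap1 and 15 type I style genes, among them Stat2, Irf9 and Irf7 of the transcription complex and its feedback, and Oas2, Mx1 and Mx2. Stat2 (chromosome 10, 128270559 to 128292849) was at 37.8, 27.3 and 28.5 FPKM in wild type and 26.8, 11.2 and 6.24 with the deletion (-1.42 log2 units, SE 0.51, edgeR adjusted p = 0.120). Oas2 was at 5.64, 4.20 and 6.14 and at 3.09, 1.49 and 0.43 (-2.0, SE 0.61, edgeR adjusted p = 0.0870). Mx2, a dynamin-like GTPase, was at 3.30, 2.38 and 2.51 and at 1.94, 0.87 and 0.82 (-1.51, SE 0.40, edgeR adjusted p = 0.0656). Parp14, an ADP-ribosyltransferase, had the smallest adjusted p (-0.78, SE 0.20, edgeR adjusted p = 0.0642). For Stat2, Oas2 and Mx2, and for Gbp3, the FPKM of the groups did not overlap, 4 of 43 genes beside 6.68% of genes tested, and replicate 1 of the deletion group was the nearest to the wild type in the first 3.

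**Figure D5:**
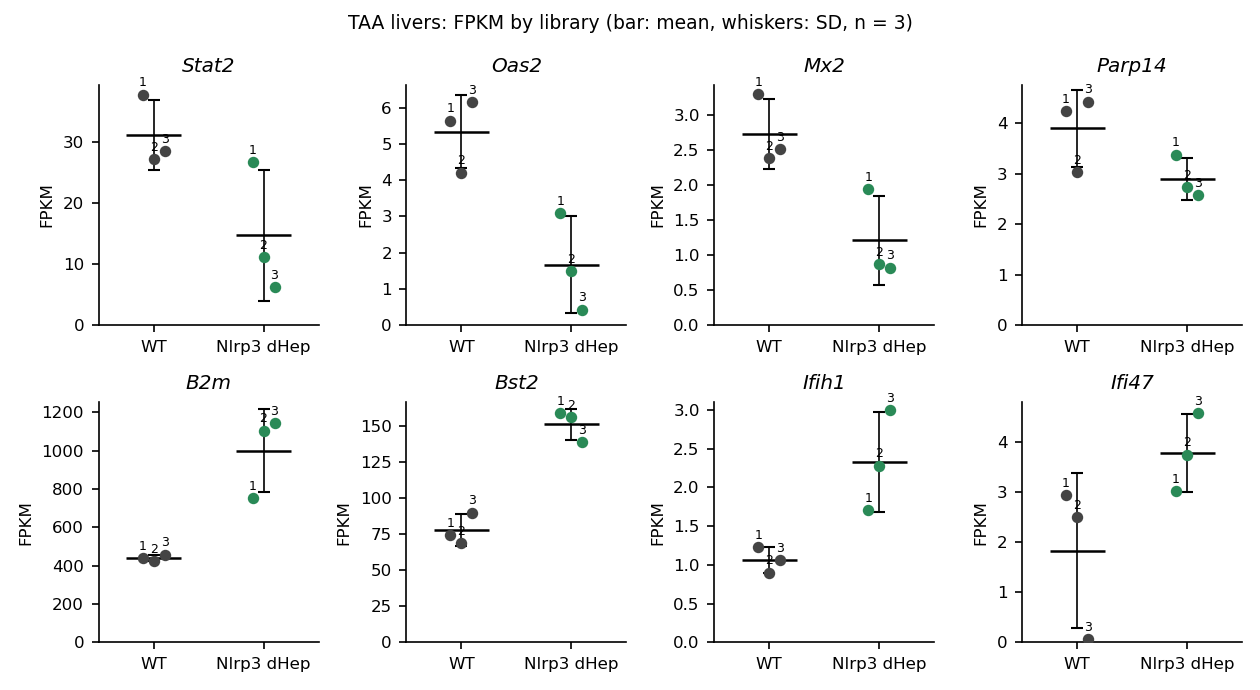
FPKM of 8 genes in the 3 wild-type TAA livers and the 3 labelled with the Nlrp3 deletion, numbered by replicate, with the mean as a bar and the SD as whiskers (n = 3). In the first 3 panels the deletion group lies below the wild type, with replicate 1 nearest to it; B2m, Bst2 and Ifih1 lie above it, and Ifi47 is near 0 in wild-type replicate 3.

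Without replicate 1 of the deletion group, edgeR called 4 of 43 members higher (B2m, Bst2, Gbp2 and Ifih1). It called 12 lower (Gbp3, Ifi35, Irf7, Irf9, Isg20, Mx1, Mx2, Oas1a, Oas2, Parp14, Stat2 and Xaf1). In all, 3570 genes were called higher and 3985 lower of 19889 tested, so calls were frequent among all genes too. Leaving out any other library gave 0 members. Ifi47 was at 2.94, 2.49 and 0.06 FPKM in wild type (410, 326 and 7 counts) and at 3.01, 3.74 and 4.57 with the deletion. The low value was confined, among these 6 libraries, to wild-type replicate 3, and the gene overlaps Olfr56. Hepatocyte markers summed to 9357 to 10194 FPKM in wild type and 25613 to 33091 with the deletion, and 2 of the 7, Fgb and Ass1, were called higher. Macrophage and monocyte markers summed to 39.3 to 53.3 and to 49.6 to 252, with 0 of 9 called. The part of these cells in the members' values was not tested.

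Few genes around the pathway were called in TAA livers, as over all genes tested (1.37% higher and 0.360% lower). Irf1 was at 12.7, 9.69 and 11.8 FPKM in wild type and 12.1, 7.41 and 5.63 with the deletion (-0.79 log2 units, edgeR adjusted p = 0.143). Ifng was at 0.15, 0.00 and 0.21 and at 0.04, 0.03 and 0.00, and Ifnb1 was not analysed here in this table. Receptor and kinase genes (9 tested), transcription factors (8), sensing genes (16), brakes (7) and other type I style genes (49) had 0 called in either direction. Of 27 other interferon gamma style genes 1 was called higher, Gm4951, and 0 lower.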

How the data were processed

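The authors' processing notes name HISAT2 2.2.1, featureCounts 1.5.0-p3 and the build mm10, with no role or order (per the submitters' processing notes). The deposited values are FPKM in the CCl4 and hepatocyte tables, and raw counts with FPKM in the TAA table (per the file headers and names). The length in bases in 2 of the deposited tables is other information. FPKM times length differed in total between libraries of the CCl4 table. In those 2 tables, values of up to 5000 reads, the range checked, came out whole (within 0.05; 100% per library), so reads were recovered.

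FPKM was tested as log2(FPKM + 1) with limma 3.58.1 (R 4.3.3), trend on, for genes averaging 1 FPKM or more, with the 3 CCl4-table groups in 1 fit. This scale understates changes of low genes. TAA counts were tested with edgeR 4.0.16 (quasi-likelihood, TMM, filterByExpr), and DESeq2 1.42.0 was an alternative. P-values were adjusted by Benjamini-Hochberg over all genes tested and called under 0.05, two-sided. Tables were never compared with each other by a test. The fits were tested on simulated data.

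The members and lists were chosen with earlier results of these data known. Every called member is named, with others at 10 FPKM or more or without overlap, and up to 3 called genes per other list. Socs1, Cxcl9, Cxcl10, Ifnar1, Irf3, the other members given and the promoters of Isg15, Igtp, Gbp2, Bst2, Ifit3 and Ifit3b were chosen after their values were seen. Same-numbered libraries deviated together for wild-type CCl4 and oil (correlations 0.23, 0.32 and 0.52) and for both CCl4 genotypes (0.19, 0.18 and 0.12). They did so too in hepatocytes with and without MCC950 (0.18, 0.22 and 0.09). Pairs with unlike numbers ran from -0.37 to 0.17 for wild-type CCl4 and oil, and from -0.15 to -0.02 for the CCl4 genotypes. Deviations from a group mean sum to 0, so a high pair by itself pushes other pairs down. The pairing by number was seen in the data only. Limits from 0 reads and intervals cover counting error or library spread only.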

Additional observations from a re-analysis of the deposited data

How the results depend on the processing

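Oas1a and Ifi27l2a kept their calls against oil, in wild type and in the livers labelled Sting knockout, under all 18 alternatives of each comparison; Oasl2 kept its call in 7 of 17. For wild-type CCl4 against oil, members called higher were 5 with a pseudocount of 0.1, 14 with edgeR on recovered reads and 2 to 8 with 1 library left out. Genes called higher were 363 at a mean of at least 5 FPKM, 1969 with edgeR and 674 to 1274 with 1 library left out, and genes lower 262 to 1198. For the livers labelled Sting knockout against oil, members higher were 4 with edgeR, 8 with the 2 groups alone and 2 to 7 with 1 library left out. Genes higher were 349 at 5 FPKM, 1702 with edgeR and 543 to 1030 with 1 library left out, and genes lower 238 to 827. Between the CCl4 genotypes, genes lower were 2 with no filter and 0 to 1 with 1 library left out. For MCC950, 1 gene was higher and 1 lower with no filter, and 0 to 1 lower with 1 library left out.

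For the Nlrp3 deletion, members called higher were 3 with library size alone, 3 with limma on FPKM and 1 with DESeq2, and members lower were 2 with no filter, 1 at a mean of at least 1 FPKM, 5 with DESeq2 and 2 with limma. With 1 library left out they were 0 to 4 higher and 0 to 12 lower. All genes higher and lower were 1137 and 456 with no filter, 598 and 312 at 1 FPKM, 1 and 0 with RLE factors, 2404 and 200 with library size alone, 1986 and 1672 with DESeq2, 2426 and 216 with limma, 561 and 138 without mitochondrial, rRNA and pseudogene counts, and 0 to 3570 and 0 to 3985 with 1 library left out. The cause of these changes was not tested.

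With the replicate number as a block, 2 members were higher after CCl4 in wild type, with 1182 genes higher and 1045 lower, and 0 members and 0 genes were called between the CCl4 genotypes. The block gave 2 members, 1109 genes higher and 956 lower for the livers labelled Sting knockout against oil. It gave 0 genes for MCC950, and 0 members, 2 genes higher and 0 lower for the Nlrp3 deletion. Same-numbered libraries correlated at 0.18, 0.22 and 0.09 in the MCC950 comparison, where other pairs ran from -0.23 to 0.01. Their correlations were 0.02, 0.18 and 0.09 for the livers labelled Sting knockout against oil (other pairs -0.24 to 0.1). For the Nlrp3 deletion they were 0.08, -0.04 and -0.02 (other pairs -0.07 to 0.1).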
